A study of Mus musculus with 18 samples.

Results

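The genes described here are the enzymes of cholesterol biosynthesis together with the SREBP2 machinery that controls them and the proteins that move or store sterol. They were taken by gene name from a list of 26 symbols, and all 26 were found among the 21734 protein-coding genes of the count table. The list holds 18 synthesis enzymes, 4 regulators and 4 genes of sterol transport and esterification. RNA was sequenced from macrophages that had been differentiated out of mouse marrow (BMDMs) during 8 to 9 days with M-CSF at 10 ng/ml. The study asks whether miR-146a, a microRNA that limits inflammatory signalling in myeloid cells, needs its 3′ region in these cells. There were 6 groups of 3 libraries. The WT groups came from mice with an intact mir-146a gene, the KO groups from mice with both copies deleted in the germline, and the 3′F groups from mice homozygous for an allele whose mature microRNA keeps its seed but has other bases in its 3′ part. Each genotype was left resting, with a change to fresh medium, or was given LPS, a bacterial cell wall component that activates TLR4, at 1 ng/ml for 16 h. By the labels, all mice were of a mixed 129 and B6 background and 6 to 7 months old, with 3 mice for each genotype. The study's methods give a younger age for the mice of its protein measurements on BMDMs, so the age is not certain. Since both alleles are in every cell of the animal, marrow progenitors carried them during the culture as well. The table is of protein-coding genes, so miR-146a itself was not analysed here and could not serve as a check of the labels.

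Cholesterol is made from acetyl-CoA in a single chain of reactions, first to mevalonate and isoprenoids, then to squalene, and last through lanosterol to cholesterol. SREBP2, encoded by Srebf2, is the transcription factor that raises transcription of nearly all of these enzymes when membrane sterol is low. SCAP carries it from the endoplasmic reticulum to the Golgi for cleavage, and the INSIG proteins hold SCAP back when sterol is plentiful. In macrophages the pathway is known to respond to inflammatory and interferon signals, and sterol taken up by phagocytosis leaves lysosomes through NPC1 and NPC2 and is stored as ester by SOAT1.

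The microRNA that separates the groups is shown first, since it defines WT and 3′F. The mature sequence of WT is from RefSeq, on the minus strand of chr11:43374435-43374456 in build GRCm38. The 3′F sequence was read as the reverse complement of the probe that the study used for it on Northern blots. Capitals mark the seed, bases 2 to 8 from the 5′ end.
WT miR-146a-5p: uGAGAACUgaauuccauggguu
3′F miR-146a: uGAGAACUgaauaaguguccuu
The sequences share the seed and differ at 8 of 22 positions, all of them from position 13 to position 20.

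Promoters are shown for 4 members because SREBP2 is known to act with the CCAAT-binding factor NF-Y on these genes. Each window runs from 250 bases before to 50 bases after the annotated start, from RefSeq on build GRCm38.p6, and is written 5′ to 3′ on the gene's strand. Capitals mark CCAAT on either strand (ATTGG on the strand shown) and TCACNCCAC, a form of the sterol regulatory element.
Hmgcs1 promoter, chr13:119690101-119690400, plus strand: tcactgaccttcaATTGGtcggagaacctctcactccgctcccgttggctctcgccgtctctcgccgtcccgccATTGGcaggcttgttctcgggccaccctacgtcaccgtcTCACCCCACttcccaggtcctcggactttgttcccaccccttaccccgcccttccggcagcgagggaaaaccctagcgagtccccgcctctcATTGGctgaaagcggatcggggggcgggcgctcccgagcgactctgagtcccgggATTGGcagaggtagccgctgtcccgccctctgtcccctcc
Hsd17b7 promoter, chr1:169969156-169969455, minus strand: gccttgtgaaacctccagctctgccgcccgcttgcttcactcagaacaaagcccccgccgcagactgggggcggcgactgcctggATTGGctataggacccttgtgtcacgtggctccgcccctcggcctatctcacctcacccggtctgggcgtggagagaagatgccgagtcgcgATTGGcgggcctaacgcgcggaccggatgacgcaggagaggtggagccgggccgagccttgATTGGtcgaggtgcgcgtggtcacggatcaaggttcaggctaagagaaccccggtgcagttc
Lss promoter, chr10:76531355-76531654, plus strand: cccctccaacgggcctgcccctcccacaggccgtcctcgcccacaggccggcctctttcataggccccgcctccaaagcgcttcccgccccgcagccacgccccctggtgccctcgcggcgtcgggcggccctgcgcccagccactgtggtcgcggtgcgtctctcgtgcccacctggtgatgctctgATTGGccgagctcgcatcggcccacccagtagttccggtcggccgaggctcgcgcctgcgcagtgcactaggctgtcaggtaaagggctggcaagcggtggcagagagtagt
Nsdhl promoter, chrX:72918271-72918570, plus strand: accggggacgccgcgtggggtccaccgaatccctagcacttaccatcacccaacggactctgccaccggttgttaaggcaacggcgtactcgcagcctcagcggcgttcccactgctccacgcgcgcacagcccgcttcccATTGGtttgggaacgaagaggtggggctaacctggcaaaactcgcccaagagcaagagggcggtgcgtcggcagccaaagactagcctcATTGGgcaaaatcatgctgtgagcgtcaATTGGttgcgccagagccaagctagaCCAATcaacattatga
The table held windows for 21 members, without Fdps, Fdft1, Sqle, Stard4 and Npc1. CCAAT stood in a window of 19 of the 21 members (90.5%) and in a window of 41.1% of 27025 genes. Some genes have several windows. By window, 19 of 27 windows of members and 37.4% of all 32851 windows held it. The 27025 genes outnumber the 21734 of the count table and were not filtered by expression, while all members passed the filter on low counts. The members without CCAAT were Acat2 and Scap. TCACNCCAC stood in 1 of the 21 (4.76%), Hmgcs1, and in 1.44% of the 27025 genes. The letters searched were CCAAT and TCACNCCAC, both on each strand. Hsd17b7 had 3 matches to CCAAT, Hmgcs1 and Nsdhl 4 each, and Lss 1. These matches are letters in a window and were not tested for binding.

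Depth ran from 4071084 to 19818043 counts a library, and the shallowest was resting 3′F replicate 3. All 26 members passed the filter on low counts, which 11357 genes passed in all. The members' lowest count in any library was 29. Levels are given as CPM, counts divided by the TMM-scaled library size and multiplied by 1000000, and sets of 3 values are in the order of replicates 1, 2 and 3. The markers that define macrophages summed to between 31119 and 86457 CPM in every library. Those of neutrophils summed to between 13.4 and 66.3 CPM, and those of B cells, T cells, dendritic cells, stromal cells and red cell precursors to at most 3.45 CPM each, with Cd3e at 0 in every library. In 2 libraries the values stood apart from the others of their group. Resting KO replicate 3 had 11656 CPM summed over 10 interferon response genes, where the other resting KO libraries had 548 and 383 CPM and the resting WT libraries 88.1, 93.5 and 205 CPM. Resting 3′F replicate 3 had the lowest depth. In limma these libraries had the lowest quality weights, 0.168 and 0.149, where the other 16 ran from 0.302 to 2.67. Among the resting libraries they also had the highest neutrophil marker sums, 52.4 CPM in KO replicate 3 and 66.3 CPM in 3′F replicate 3, where the other 7 resting libraries ran from 13.4 to 26.9 CPM, and the part of this in the results was not tested. Results that rest on these libraries are given with and without them.

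Levels between genes were compared per kb of exon, in CPM per kb, as means of the 3 resting WT libraries. Npc2, the small lysosomal sterol carrier, was highest at 351 CPM per kb. The methylsterol oxidase gene Msmo1 led the enzymes with 106 CPM per kb, followed by Hmgcs1, which makes the precursor of mevalonate, with 83.7 CPM per kb, and by the squalene epoxidase gene Sqle with 64.6 CPM per kb. Among the regulators, Insig1 had 72.8, Srebf2 24.2, Insig2 10.6 and Scap 7.87 CPM per kb. The lowest members were Dhcr7, for the last reductase of the chain, with 4.19 CPM per kb and Tm7sf2, for a sterol reductase, with 7.11 CPM per kb. Fdps, for farnesyl diphosphate synthase, was counted over only 330 bases, 7.84% of its exons in the GENCODE M21 annotation, where it overlaps Gm43738 on the same strand, so its level and changes rest on a small part of the gene. Tm7sf2 overlaps Vps51 on the same strand and was counted over 32.9% of its exons. Of the leading enzymes, Msmo1 was counted over 38.6%, Hmgcs1 over 79.4% and Sqle over 49.7% of their exons. Their order per kb rests on these uneven shares. Acat2 has a near-identical neighbour, Acat3, so reads that fit both could be dropped by the mapping quality filter, and its counts are uncertain.

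**Figure D1:**
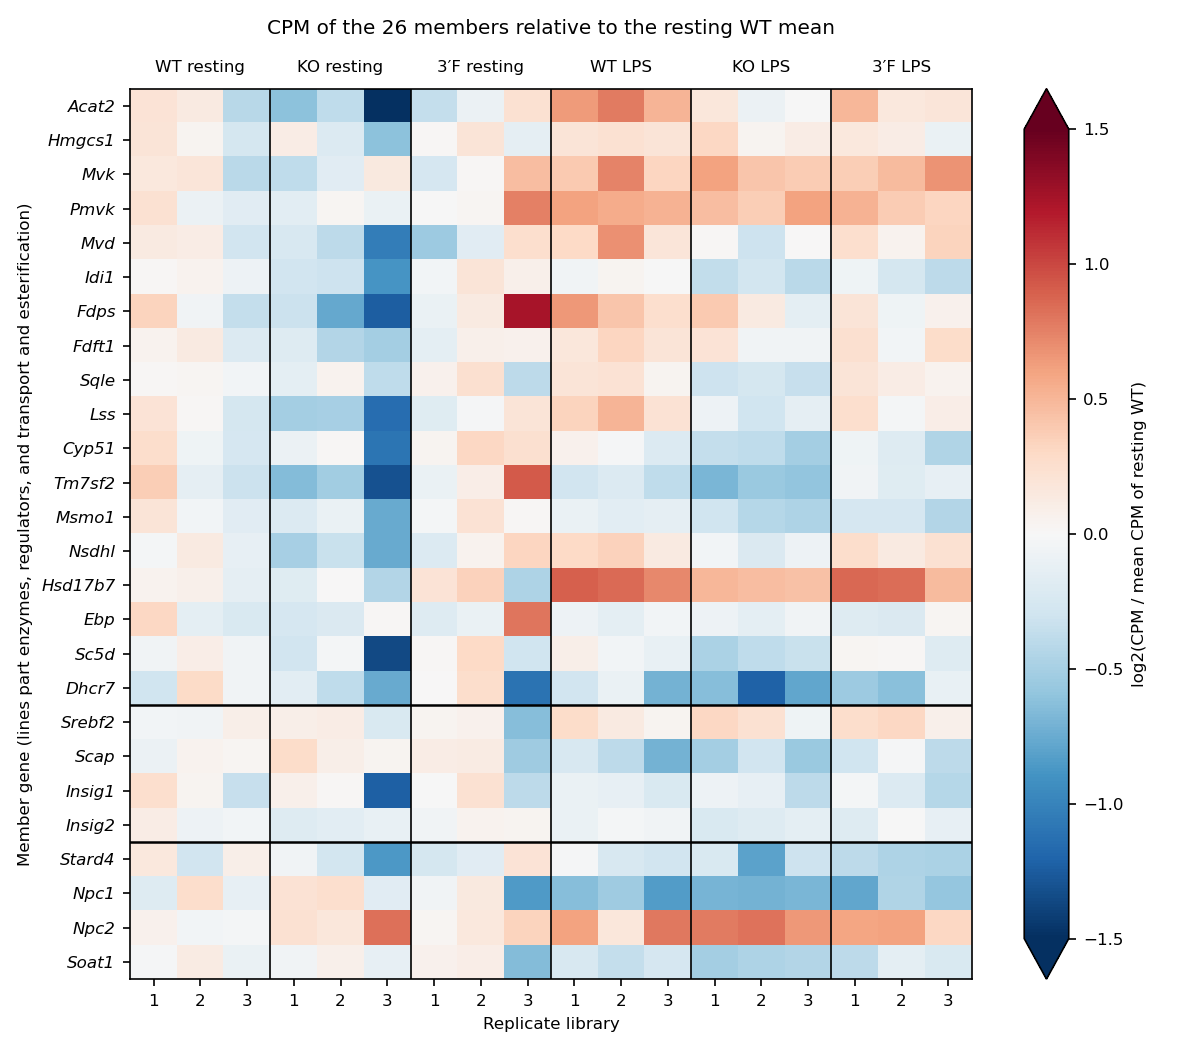
Heatmap of the 26 members (rows, parted by lines into enzymes, regulators, and transport and esterification) in the 18 libraries (columns, 3 replicates for each group). Colour is log2 of CPM over the mean CPM of resting WT. Resting KO replicate 3 is blue for all enzymes but Mvk and Ebp, and Hsd17b7 is red in all 9 libraries with LPS.

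The response to LPS was measured in each genotype. Hsd17b7, which encodes a ketosteroid reductase of the late pathway (chromosome 1, 169949535-169969241, minus strand), rose in all 3 genotypes. In WT it had 67.5, 69.0 and 59.5 CPM at rest and 122, 118 and 108 CPM with LPS. In KO it had 57.4, 65.6 and 48.3 CPM at rest and 91.9, 90.0 and 88.4 CPM with LPS. The 3′F libraries had 75.4, 82.7 and 47.5 CPM at rest and 119, 117 and 91.1 CPM with LPS. No library at rest reached any library with LPS of its genotype. Of all 11357 genes, 2943 in WT, 2704 in KO and 2847 in 3′F were likewise higher in every library with LPS. The rise was 1.77-fold in WT (log2 0.83, SE 0.17, adjusted P = 0.00154), 1.58-fold in KO (adjusted P = 0.00747) and 1.58-fold in 3′F (adjusted P = 0.00695). It was seen in all 9 mice, with log2 ratios of LPS over resting between 0.46 and 0.94. In these bulk samples, fewer cells of a type and less RNA per cell cannot be told apart.

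A gene was called where the P of edgeR's quasi-likelihood test, adjusted by Benjamini-Hochberg over all 11357 genes, was under 0.05. In WT BMDMs LPS changed 5 of the 26 members. Higher were Hsd17b7, Acat2, Pmvk and Npc2, 4 members against 16.3% of all genes called higher, and Npc1 was lower, 1 member against 12.3% of all genes called lower. The number called higher is near what the background share gives, and the number called lower is under it. Acat2, the thiolase gene at the start of the chain, had 29.1, 27.8 and 18.9 CPM at rest and 39.1, 43.3 and 35.9 CPM with LPS (1.56-fold, adjusted P = 0.0406). Pmvk, for phosphomevalonate kinase, went from 26.5, 21.4 and 20.1 CPM to 34.5, 33.3 and 32.5 CPM (1.47-fold, adjusted P = 0.0184). In both genes all libraries with LPS lay above all libraries at rest, as in 11 of the 26 members and in 2943 of all 11357 genes. The median log2 difference of the 18 enzymes was 0.22, and of all genes 0.02.

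The lysosomal pair moved apart in WT. Npc1, for the membrane protein that exports sterol from lysosomes had 377, 518 and 395 CPM at rest and 276, 297 and 241 CPM with LPS (log2 -0.66, SE 0.20, adjusted P = 0.0214). Npc2, for its soluble partner, had 1213, 1129 and 1133 CPM at rest and 1757, 1304 and 2011 CPM with LPS (log2 0.55, SE 0.18, adjusted P = 0.0304). With each mouse as a block the adjusted P of Npc2 was 0.065. Leaving out 1 WT library at a time gave between 1 and 4 members called, with 1 left without resting replicate 2, namely Hsd17b7.

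KO BMDMs had the longest list with LPS, with 11 members called. The 8 higher members, against 14.3% of all genes called higher, were all enzymes: Acat2, Mvk, Pmvk, Fdps, Fdft1, Lss, Nsdhl and Hsd17b7. The 3 lower members, against 12.6% of all genes called lower, were Scap, Npc1 and Soat1. The number called lower is near what the background share gives. Of the 18 enzymes, 8 were called higher, 10 did not pass the test and none was called lower. Log2 differences of the 8 ran from 0.41 in Nsdhl to 0.84 in Fdps. The median of the 18 enzymes was 0.38, but 0.21 without resting KO replicate 3 and 0.13 without both libraries that stood apart, where that of WT was 0.22. The median of all genes also shifted between fits. It was 0.02 in KO with all libraries, -0.05 in KO without both, and 0.02 in WT.

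Several of these enzymes were lowest in resting KO replicate 3. Lss, which closes the rings of lanosterol (chromosome 10, 76531588-76557138, plus strand), had 56.5, 57.0 and 36.5 CPM at rest and 76.0, 65.3 and 73.3 CPM with LPS (adjusted P = 0.0293). Mvk, for mevalonate kinase, did not follow that order, with 19.1, 22.2 and 27.7 CPM at rest and 37.8, 33.3 and 32.4 CPM with LPS (1.51-fold, adjusted P = 0.0325). Without both libraries that stood apart, 14 members were called, 6 higher against 21.6% of all genes called higher in that fit and 8 lower against 22.7% called lower. Fdft1, Lss and Nsdhl were then no longer called, and Npc2 was called higher and Cyp51, Sqle, Msmo1, Sc5d and Dhcr7 lower. Leaving out 1 KO library at a time gave 3 to 8 members, with the fewest without LPS replicate 1, and with each mouse as a block 9 were called, since Nsdhl (adjusted P = 0.0505) and Soat1 (adjusted P = 0.0665) were lost.

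Among the lower members in KO, Npc1 had 498, 512 and 383 CPM at rest and 264, 263 and 268 CPM with LPS (log2 -0.81, SE 0.20, adjusted P = 0.00696). Soat1, for the enzyme that esterifies cholesterol for storage, had 607, 661 and 577 CPM at rest and 439, 456 and 464 CPM with LPS (log2 -0.44, adjusted P = 0.0409). Scap had 44.3, 38.8 and 37.6 CPM at rest and 25.8, 30.1 and 24.96 CPM with LPS (log2 -0.58, SE 0.16, adjusted P = 0.0136). For each of the 3 genes no KO library with LPS reached a resting KO library, as in 2140 of all 11357 genes.

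In 3′F BMDMs LPS changed 2 members, Hsd17b7 higher against 17.2% of all genes called higher and Msmo1 lower against 14.0% of all genes called lower. Msmo1 had 246, 292 and 253 CPM at rest and 210, 211 and 184 CPM with LPS (log2 -0.39, SE 0.14, adjusted P = 0.0499, and 0.0504 with each mouse as a block). Without both libraries that stood apart 12 members were called. Acat2, Mvk, Pmvk, Mvd and Hsd17b7 were higher, 5 members against 18.1% of all genes called higher in that fit, which is near the background. Idi1, Cyp51, Msmo1, Dhcr7, Scap, Npc1 and Soat1 were lower, 7 members against 17.1% called lower. The median of the 18 enzymes was 0.07 with all libraries and -0.01 without both libraries that stood apart, where that of all genes was -0.0085 and -0.0248. Npc1 shows what resting 3′F replicate 3 did. It had 414, 476 and 238 CPM at rest and 251, 314 and 288 CPM with LPS. Its log2 difference was -0.41 with that library (adjusted P = 0.136) and -0.69 without that library alone (adjusted P = 0.00456). Without resting 3′F replicate 3 alone, 6 members were called.

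**Figure D2:**
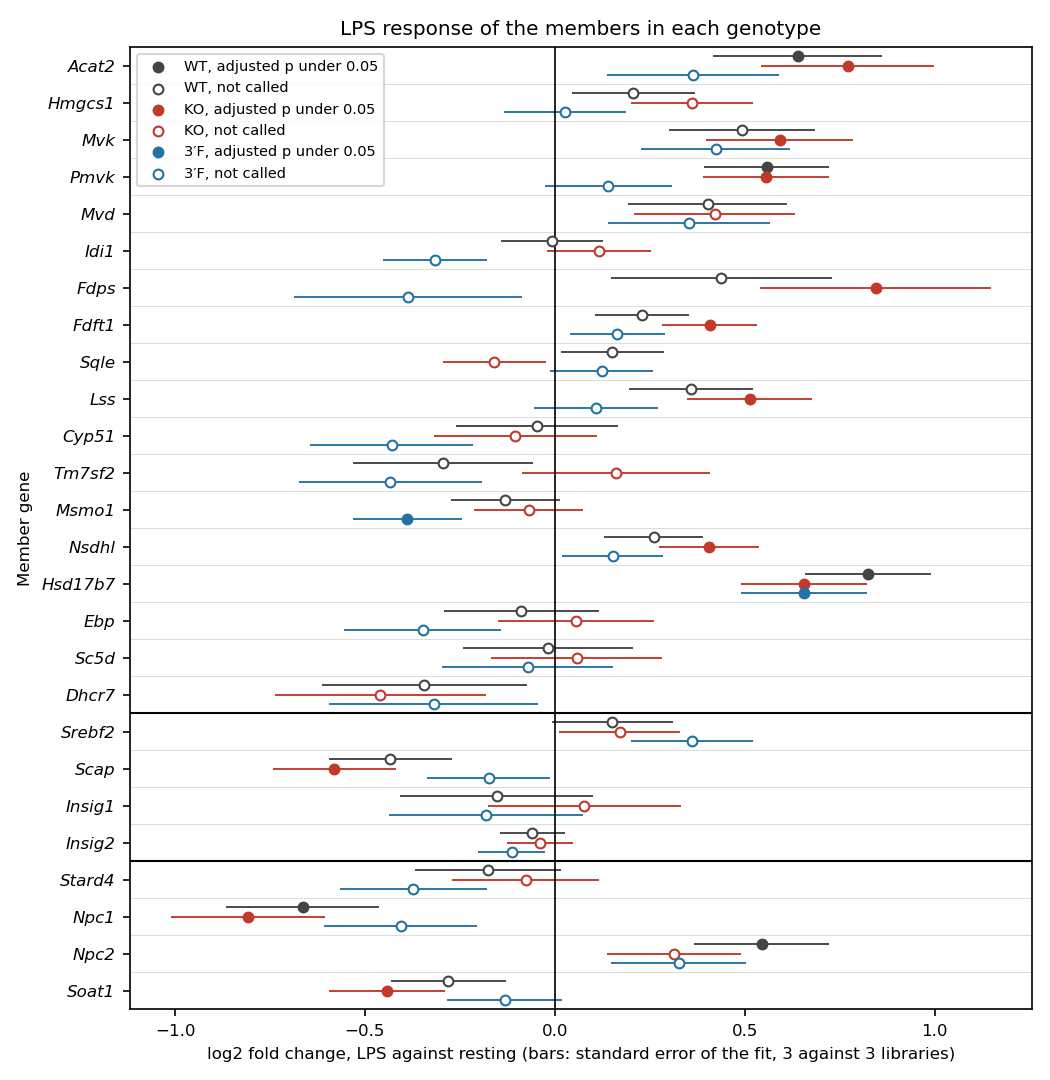
Log2 fold change of each member between LPS and resting BMDMs in WT, KO and 3′F. Points are fitted values with SE bars from 3 against 3 libraries, filled where the adjusted P was under 0.05. Hsd17b7 is filled in all 3 genotypes, between 0.66 and 0.83, and Npc1 is filled in WT and KO.

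In the edgeR fit of all libraries, 1 of the 4 SREBP2 regulators was called with LPS, Scap, which was lower in KO (log2 -0.58). Srebf2 had 117, 117 and 129 CPM in resting WT and 146.1, 132 and 124 CPM with LPS (log2 0.15, interval -0.16 to 0.46). In KO it had 129, 130 and 103 CPM at rest and 150.2, 141 and 116 CPM with LPS, and in 3′F 124, 126 and 77.7 CPM at rest and 145, 150.4 and 127 CPM with LPS. None of the 3 responses of Srebf2 passed the test, although in 3′F all libraries with LPS lay above all at rest (log2 0.36, adjusted P = 0.0971, and 0.0348 with each mouse as a block). Insig1, itself a well-known SREBP2 target, had log2 differences between -0.18 and 0.08 in the 3 genotypes, and its groups overlapped. Insig2 was the steadiest member, from 27.3 to 34.7 CPM over the 18 libraries. Scap in WT had 34.6, 38.0 and 37.2 CPM at rest and 31.0, 27.9 and 22.4 CPM with LPS (log2 -0.43, adjusted P = 0.056, and 0.0465 with each mouse as a block).

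Whether the responses differ between genotypes was tested by interaction terms. No member passed, for KO against WT or for 3′F against WT, with edgeR, DESeq2 or limma-voom, and in the edgeR fit of all libraries no member had an unadjusted P under 0.05. In limma-voom 2 members did for KO and 5 for 3′F, and without both libraries that stood apart 2 did for each. The median interaction of the enzymes for KO was 0.11, and -0.07 without these libraries. In edgeR 0.00881% of all genes passed for KO and 0% for 3′F. For KO, DESeq2 called 3 genes higher and 20 lower of 9367, and limma-voom 14 and 43 of 11357. For 3′F both called 0. The intervals are wide. For Lss the interaction of KO and WT was 0.15 (95% interval -0.30 to 0.61), and for Hsd17b7 it was -0.17 (-0.63 to 0.29). The longer list of calls in KO is therefore not shown to be a different response.

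The comparison of KO with WT asks how BMDMs of mice without miR-146a differ. By the study's methods, the KO and 3′F lines came from separately targeted embryonic stem cells and were bred apart. Those methods take WT mice equally from both lines. Other differences between the lines cannot be told apart from an effect of the allele here, also between KO and 3′F. In resting BMDMs all 18 enzymes had a lower fitted level in KO, where 47.3% of all genes did. The median log2 difference was -0.38, against 0.02 for all genes. Of the members 3 were called lower, Lss, Nsdhl and Idi1, against 4.27% of all genes called lower, and none was called higher against 5.12% of all genes called higher. In 4 enzymes every KO library lay below every WT library, where 13.1% of all genes did so.

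Lss had the smallest adjusted P of the members. It had 92.6, 81.5 and 66.7 CPM in resting WT and 56.5, 57.0 and 36.5 CPM in resting KO (log2 -0.68, SE 0.17, adjusted P = 0.0169). Nsdhl, for a sterol dehydrogenase that removes methyl groups from lanosterol products (chromosome X, 72918557-72958514, plus strand), had 35.1, 39.4 and 33.0 CPM in WT and 25.5, 28.4 and 21.2 CPM in KO (log2 -0.52, SE 0.13, adjusted P = 0.0228). Idi1, for the isomerase of the isoprenoid building blocks (chromosome 13, 8885501-8892451, plus strand), had 25.7, 26.2 and 23.98 CPM in WT and 20.7, 20.4 and 13.7 CPM in KO (log2 -0.46, SE 0.14, adjusted P = 0.0437). Resting KO replicate 3 was the lowest library in each of the 3 genes, and the other KO libraries also lay below all WT libraries. Tm7sf2 had the largest fitted difference (log2 -0.78, adjusted P = 0.0571), with 13.3, 9.41 and 8.22 CPM in WT and 6.55, 7.19 and 4.15 CPM in KO.

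The remaining enzymes had smaller or more variable differences. In Acat2 (log2 -0.75, adjusted P = 0.0507) the KO libraries had 16.5, 19.4 and 8.98 CPM, and 1 of them lay above the lowest WT library. Fdps, Mvd, Fdft1 and Msmo1 had an unadjusted P under 0.05, with log2 differences of -0.71, -0.51, -0.37 and -0.33. In Cyp51, for lanosterol demethylase, Sc5d, for a sterol desaturase, and Dhcr7 the log2 differences were -0.31, -0.45 and -0.40. Pmvk, Mvk, Sqle, Ebp, Hsd17b7 and Hmgcs1 lay between -0.20 and -0.08.

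Summed over the 18 enzymes, resting WT libraries had 1674, 1528 and 1318 CPM and resting KO libraries 1359, 1369 and 930 CPM. The groups overlapped in this sum, because WT replicate 3 lay below KO replicates 1 and 2. Without both libraries that stood apart, all 18 enzymes still had a lower fitted level in KO, with a median of -0.25, and Lss, Nsdhl and Tm7sf2 were called, 3 members against 6.58% of all genes called lower. Leaving out 1 library at a time gave 16 to 18 enzymes below 0 and 0 to 4 members called. No member was called without resting WT replicate 1 or without resting WT replicate 2, and 1, Lss, without resting KO replicate 3.

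No regulator and no transport gene was called between resting KO and WT. Srebf2 had 117, 117 and 129 CPM in resting WT and 129, 130 and 103 CPM in resting KO (log2 difference from -0.32 to 0.31, 95% interval). Scap was 0.14 higher in KO on the log2 scale and Insig1 was 0.27 lower, and neither passed the test. Npc2 was above all WT libraries in each KO library, with 1362, 1299 and 2046 CPM (log2 0.44, adjusted P = 0.144). Of all 11357 genes 1553 were placed so. Insig2 was below all WT libraries in each KO library, with a small difference (log2 -0.16, SE 0.09, adjusted P = 0.296). Stard4, for a soluble sterol carrier, had a log2 difference of -0.35 with overlapping groups, Npc1 of 0.11 and Soat1 of -0.03.

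With LPS, the enzymes again all had a lower fitted level in KO than in WT, 18 of 18 with a median log2 difference of -0.35, where 47.4% of all genes were below 0. In 11 of the 18 every KO library lay below every WT library, where 16.1% of all genes did so. No member passed the adjusted test in edgeR, against 4.79% of all genes called in either direction. At an unadjusted P under 0.05 there were 7 members, while DESeq2 called 2 (8.66% of all genes), limma-voom with quality weights 7 (15.6% of all genes), and edgeR on the compared groups alone 8 (9.16% of all genes), all of these members lower. The calls therefore depend on the tool and on which libraries enter the fit.

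Sqle, for the squalene epoxidase that commits squalene to sterol, had 203.5, 207 and 184 CPM in WT with LPS and 143.5, 149 and 140.3 CPM in KO with LPS (log2 -0.46, SE 0.14, adjusted P = 0.0633). With the replicate number as a block, which pairs no mice across genotypes, its adjusted P was 0.0341. Sqle was the 1 member called in that fit. Lss had 101, 115 and 93.3 CPM in WT and 76.0, 65.3 and 73.3 CPM in KO (log2 -0.53, adjusted P = 0.0753). Hsd17b7, which rose with LPS in both, reached 122, 118 and 108 CPM in WT and 91.9, 90.0 and 88.4 CPM in KO (log2 -0.36, adjusted P = 0.257). In these 3 genes the KO libraries with LPS were close to each other and below WT throughout. Mvk, Hmgcs1 and Ebp were at the other end, with log2 differences of -0.03, -0.05 and -0.01.

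**Figure D3:**
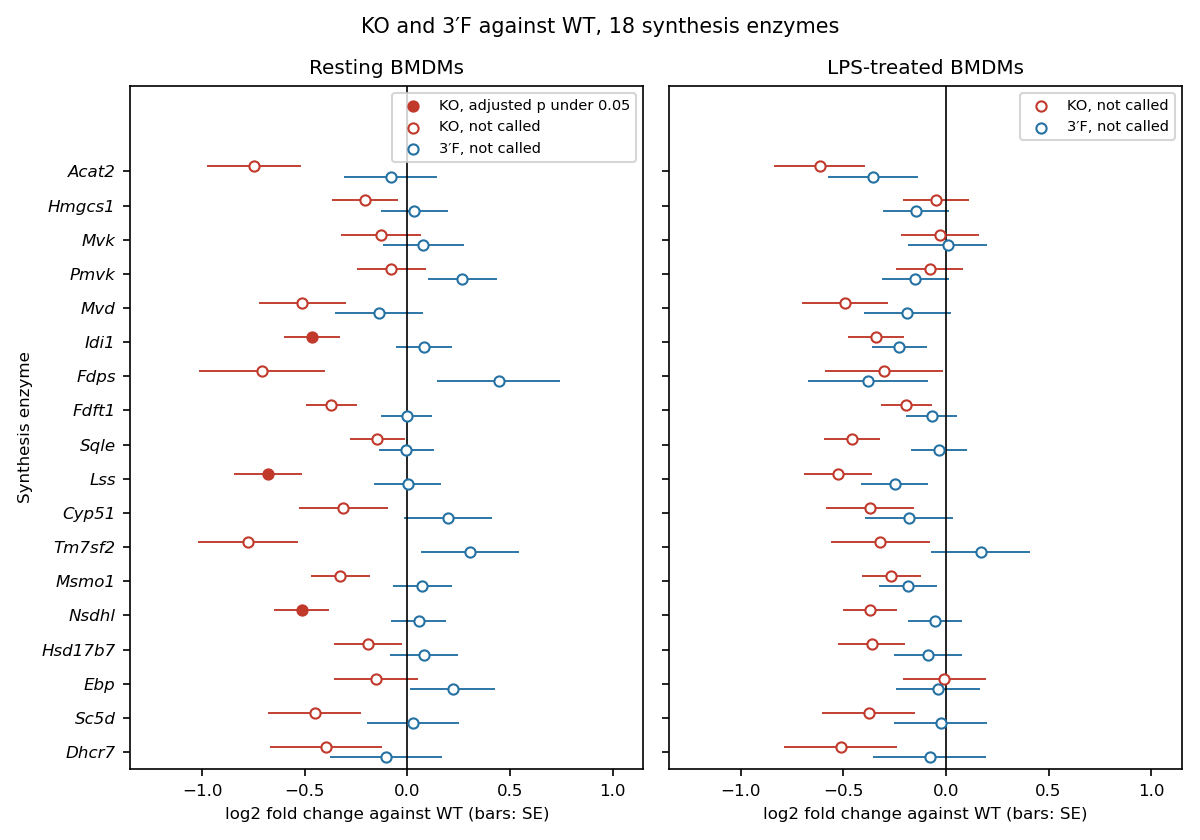
Log2 fold change of the 18 enzymes against WT, for KO (red) and 3′F (blue), in resting BMDMs (left) and with LPS (right). Bars are SE. All red points lie to the left of 0 in both panels, with medians of -0.38 and -0.35, while the blue points lie around 0 at rest, with a median of 0.06.

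Other measures moved with genotype beside the enzymes, and their part in the result was not tested. Of 12 proliferation genes 8 were called lower in resting KO than in resting WT (median log2 -1.68), and 8 were called lower with LPS (median -1.26). Summed CPM of the 12 was 1001 to 1345 in resting WT, 367 to 506 in resting KO, 435 to 797 in WT with LPS and 259 to 365 in KO with LPS, so the sums did not overlap in either state. All 10 interferon response genes were called higher in resting KO (median log2 5.08), and 9 of them without both libraries that stood apart (median log2 2.003). With LPS 0 of them were called in edgeR, where none had an unadjusted P under 0.05. Without both libraries the proliferation list had 9 genes called lower at rest (median log2 -1.44). Macrophage markers summed to 31119 to 47144 CPM in resting WT and 59490 to 61539 CPM in resting KO, with 3 of 8 tested marker genes called, 2 higher and 1 lower.

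**Figure D4:**
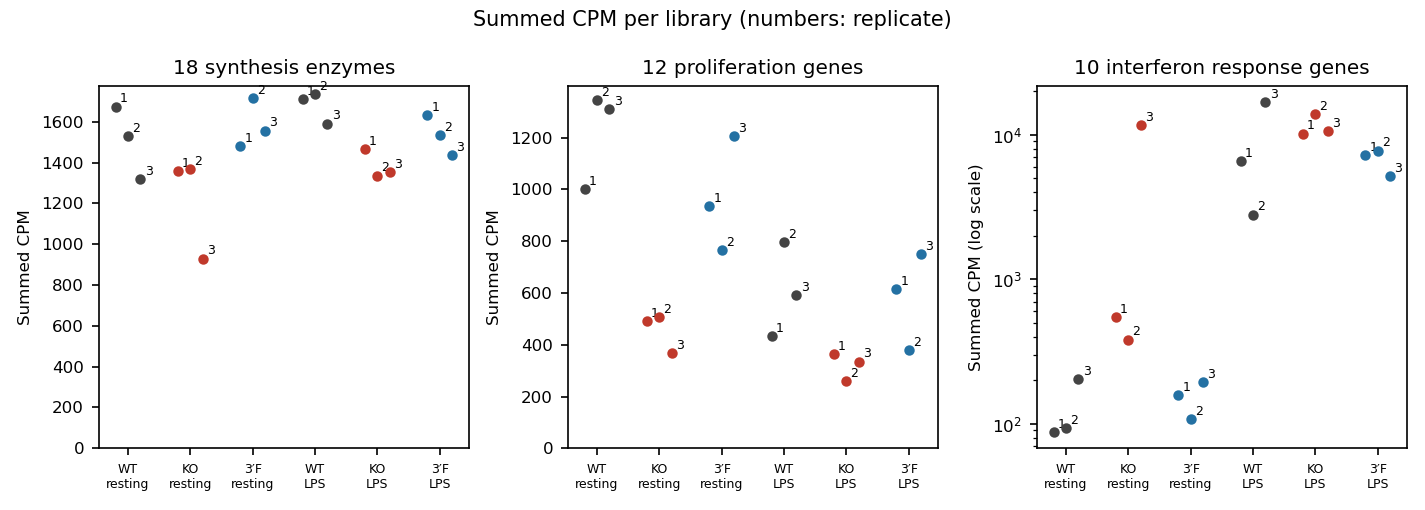
Summed CPM in each library (numbers are replicates) of the 18 enzymes, 12 proliferation genes and 10 interferon response genes, the last on a log axis. Resting KO replicate 3 has the lowest enzyme sum, 930 CPM, and an interferon sum of 11656 CPM, within the range of the libraries with LPS.

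BMDMs with the 3′F allele were compared with WT in both states. At rest no member was called, and over all genes 0% were called. The enzymes lay on both sides, 5 of 18 below 0 with a median of 0.06. Lss had 70.8, 79.3 and 92.0 CPM in 3′F and 92.6, 81.5 and 66.7 CPM in WT (log2 0.00, 95% interval -0.32 to 0.32). Nsdhl had 31.0, 37.1 and 44.7 CPM in 3′F (log2 0.05, interval -0.21 to 0.31) and Idi1 24.7, 29.0 and 26.7 CPM (log2 0.08, interval -0.18 to 0.35). The intervals of Lss and Idi1 leave room for moderate changes. Without resting 3′F replicate 3, 8 of the 18 enzymes were below 0.

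With LPS 16 of 18 enzymes were below 0 in 3′F against WT, where 52.1% of all genes were, with a median of -0.12. No member was called, against 0.00881% of all genes, and in the edgeR fit of all libraries no member had an unadjusted P under 0.05 in either state. DESeq2 and limma-voom called none. At an unadjusted P under 0.05, limma-voom gave 3 members in each state and edgeR on the compared groups alone gave 5 with LPS. In 5 of the 18 enzymes every 3′F library lay below every WT library, where 442 of 11357 genes did so. In 1 enzyme every 3′F library lay above every WT library, where 452 of 11357 genes did so. Acat2 had 35.6, 28.2 and 28.6 CPM in 3′F and 39.1, 43.3 and 35.9 CPM in WT, without overlap (log2 -0.36, 95% interval -0.79 to 0.08). The comparisons of KO and of 3′F with WT share the WT libraries.

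KO was therefore also compared with 3′F directly. That comparison shares its KO libraries with the comparison of KO with WT, so the results are not independent. At rest all 18 enzymes had a lower fitted level in KO, with a median log2 difference of -0.39, where 49.2% of all genes were below 0. Lss, Nsdhl, Idi1, Fdps and Tm7sf2 were called lower, 5 members against 6.10% of all genes called lower, and none was called higher against 6.79% of all genes called higher. In 9 enzymes every KO library lay below every 3′F library, where 14.0% of all genes did so. Tm7sf2 had 6.55, 7.19 and 4.15 CPM in KO and 9.65, 11.01 and 19.4 CPM in 3′F (log2 -1.08, SE 0.25, adjusted P = 0.0122). Fdps had 6.37, 4.66 and 3.37 CPM in KO and 7.39, 8.75 and 18.7 CPM in 3′F (log2 -1.15, adjusted P = 0.025). In both genes the widest gap was between the libraries that stood apart, KO replicate 3 at the bottom and 3′F replicate 3 at the top.

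Without these libraries no member was called at rest, where 6.56% of all genes were called in either direction and 7 members had an unadjusted P under 0.05, and 17 of 18 enzymes were below 0 with a median of -0.25. Without 3′F replicate 3 alone 2 members were called. With LPS 14 of 18 enzymes were below 0 in KO against 3′F, with a median of -0.22, where 47.4% of all genes were. In 7 of them every KO library lay below every 3′F library, where 14.9% of all genes did so. No member was called in edgeR, against 3.88% of all genes called in either direction, 2 had an unadjusted P under 0.05, DESeq2 called 1, Sqle, where it called 7.06% of all genes, and limma-voom 4, where it called 16.2%. Sqle had 143.5, 149 and 140.3 CPM in KO and 204, 192 and 185 CPM in 3′F (log2 -0.42, SE 0.14, adjusted P = 0.0976).

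**Figure D5:**
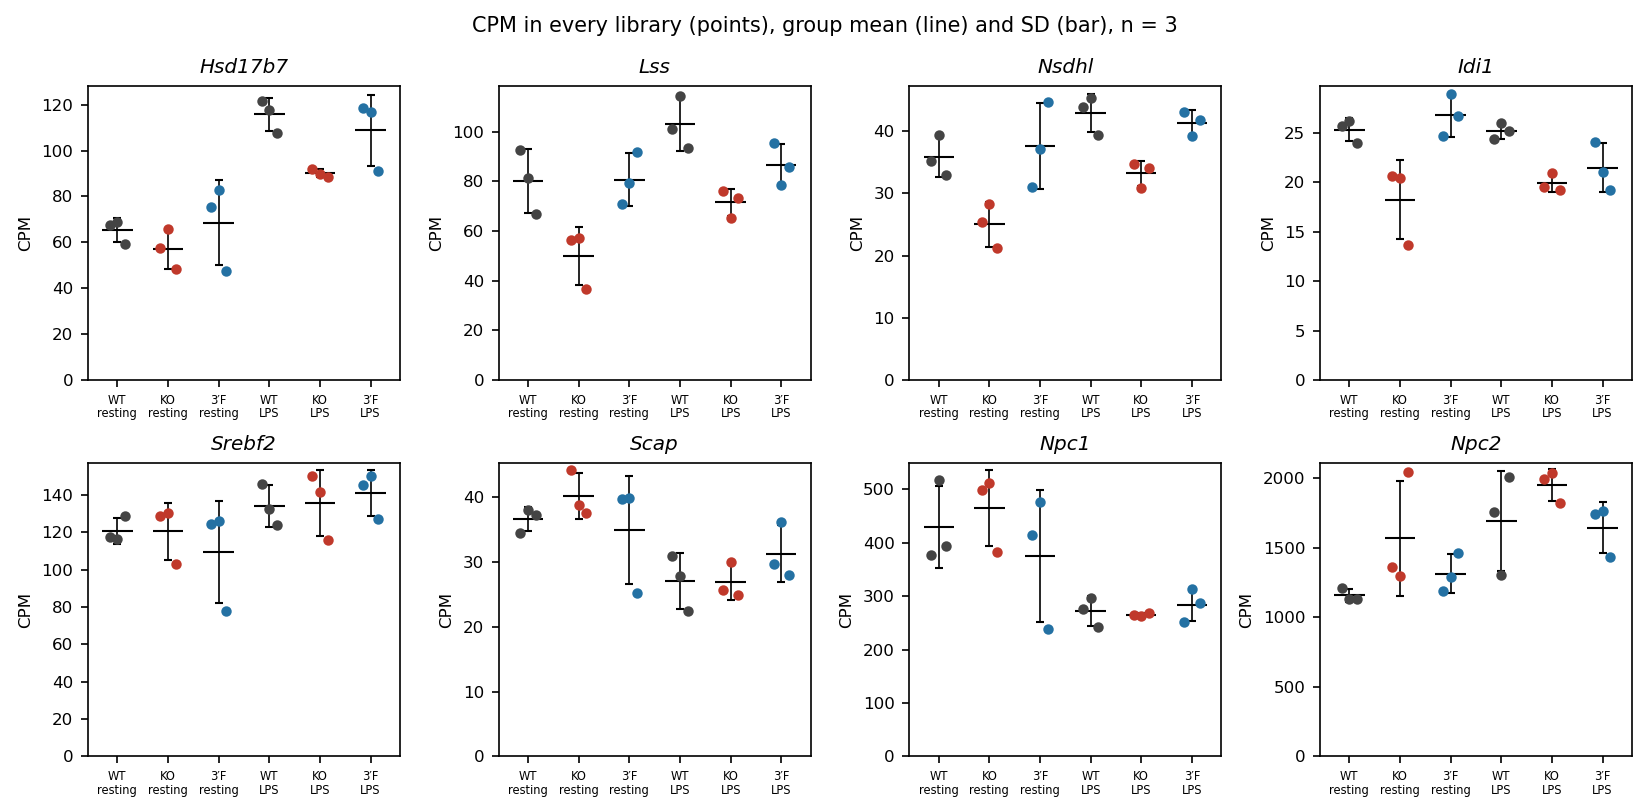
CPM of 8 members in every library, with group means as lines and SD as bars (n = 3). Lss, Nsdhl and Idi1 are lowest in resting KO, Hsd17b7 is higher with LPS in each genotype, and Npc1 and Scap are lower with LPS in WT and KO.

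Genes around the pathway were counted from other lists. Of 14 genes of fatty acid synthesis and its factor SREBP1, 2 were called lower in resting KO against WT, both desaturases of stearoyl-CoA. Scd1 had 4.27, 2.79 and 3.38 CPM in WT and 0.680, 0.994 and 0.337 CPM in KO (log2 -2.31, SE 0.43, adjusted P = 0.00423). Scd2 had 16.1, 23.1 and 20.4 CPM in WT and 11.4, 13.5 and 4.94 CPM in KO (log2 -0.97, adjusted P = 0.0356). Without both libraries that stood apart Scd1 was still called (log2 -2.05), and Scd2 was not (log2 -0.65, adjusted P = 0.0658). With LPS, Acss2, which makes acetyl-CoA from acetate, Acaca, for acetyl-CoA carboxylase, and Me1, for malic enzyme, were called higher in WT, with log2 differences of 1.44, 0.47 and 0.73. In 3′F the same genes were called higher, with 1.32, 0.44 and 0.87, and Scd2 with 0.89, while in KO the 1 gene called was Scd2 with 1.03. Without both libraries Scd2 had 0.66 in KO, still called, and Acss2 was called higher too, with 1.05. Against resting 3′F, resting KO was lower in Scd1 (log2 -1.91) and higher in Me1 (log2 0.77), and neither was called without both libraries.

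Among 8 genes that process SREBPs or degrade sterol enzymes, Rnf145, for a ubiquitin ligase of the endoplasmic reticulum, was called higher with LPS in all 3 genotypes, with log2 differences of 0.65 in WT, 1.13 in KO and 0.70 in 3′F. It was also higher in KO than in WT with LPS (79.4, 89.1 and 85.9 CPM against 59.7, 54.9 and 72.2 CPM, log2 0.45, adjusted P = 0.0281). Erlin1, for an endoplasmic reticulum protein that takes part in sterol-regulated degradation, was higher there too (log2 0.38, adjusted P = 0.0216). Of 9 genes of the branches that use isoprenoids, 1 was called in WT with LPS, Pggt1b, and 1 in KO with LPS, Ggps1, both higher, and Ggps1 was not called without both libraries (adjusted P = 0.0719). No gene of these lists was called between 3′F and WT in either state, and none had an unadjusted P under 0.05.

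Oxysterols are known to hold SREBP2 in the endoplasmic reticulum. Of 3 tested genes that make or convert oxysterols, Ch25h, Cyp27a1 and Hsd3b7, the first 2 were called higher in resting KO against WT. Ch25h, for cholesterol 25-hydroxylase, had 1 to 2 counts in each resting WT library and 9 to 43 counts in each resting KO library, with CPM of 0.804, 0.688 and 4.83 in KO. Without both libraries that stood apart it was not called (adjusted P = 0.0608). With LPS it had 0.768, 0.273 and 1.25 CPM in WT and 3.86, 4.85 and 4.64 CPM in KO (log2 2.54, SE 0.68, adjusted P = 0.0421). Against 3′F with LPS the difference of Ch25h was 2.59 on the log2 scale. Cyp27a1, for the mitochondrial sterol hydroxylase, had 16.2, 16.2 and 17.0 CPM in resting WT and 27.3, 25.5 and 22.6 CPM in resting KO (log2 0.61, adjusted P = 0.0452, and 0.0211 without both libraries). It fell with LPS in all 3 genotypes, by 1.07 in WT, 1.22 in KO and 1.17 in 3′F on the log2 scale. The level of Ch25h is far below that of the enzymes, and its part in their difference was not tested.

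Matches to the seed of miR-146a were counted in the longest annotated 3′ end of each message beyond its coding part. Of the 26 members 5 (19.2%) held a match of 7 or 8 bases (bases 2 to 8 paired, or 2 to 7 with an A after them), and of 11308 tested genes with such a region 22.1% did. They were Hmgcs1, Insig2, Soat1 and Stard4 with 7 bases and Lss with 8 bases. In resting KO against WT the fitted log2 differences of these 5 were -0.20, -0.16, -0.03, -0.35 and -0.68, in that order.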

How the data were processed

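RNA-seq of 18 BMDM libraries was analysed, 6 groups of 3. The values are raw counts per protein-coding gene as deposited by the authors, who trimmed reads with cutadapt 1.8.3, aligned them to mm10 with HISAT2 2.1.0 and counted them by strand with featureCounts 1.5.3 at a mapping quality of at least 50, on rRNA-depleted directional libraries. Reads that map to several places are therefore mostly left out, which touches genes with near copies. All value columns mapped to a sample. Genes were filtered with filterByExpr, leaving 11357 of 21734, and scaled by TMM. All 18 libraries entered 1 quasi-likelihood fit in edgeR 4.0.16 (R 4.3.3), and 11 comparisons were tested with Benjamini-Hochberg adjustment over all genes, called at 0.05. The scripts were tested on simulated data. Depth was 4071084 to 19818043 counts.

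The 26 members and the other gene lists were chosen with earlier results of these data known. All members were to be named, with library values for those called most often, those against the majority and the regulators. Alternatives were DESeq2 1.42.0, RLE factors, no filter, limma 3.58.1 with voom and quality weights, the compared groups alone, a replicate block and leaving out each library. Chosen after seeing the data were the fit without both libraries that stood apart, for members and lists, and the count of enzymes below 0. An exact permutation test of 3 against 3 cannot give less than 0.1 and was not used.

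Resting and LPS libraries of a genotype with the same number were taken as the same mouse, from the labels, and their deviations from group means correlated between -0.026 and 0.359. Across genotypes the numbers name different mice. Promoter and microRNA sequences are from RefSeq (GRCm38.p6) and gene models from GENCODE M21.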

Additional observations from a re-analysis of the deposited data

How the results depend on the processing

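The number of members called depended on the fit. Direction was compared only for gene results called in the fit of all libraries, and the alternatives share libraries with it, so few reversals could be seen. The median of the 18 enzymes did change sign without both libraries that stood apart. For LPS in 3′F it went from 0.07 to -0.01, and for the interaction of KO and WT from 0.11 to -0.07. Of 26 gene results called, 333 alternative values gave 224 on the same side of the threshold, 109 no longer past it and 0 reversed. For the LPS response in WT, limma-voom with quality weights called 12 members, where it called 2878 genes higher and 2340 lower of 11357. Leaving out 1 library gave 1 to 4 members. For KO, 6 were called with no filter on low counts and 6 with the compared groups alone. Over all genes no filter gave 1209 higher and 1391 lower of 19883, and the compared groups alone 1212 and 1310 of 11357. Leaving out 1 library gave 3 to 8 members. For 3′F, 1 was called with no filter, 14 with quality weights, 0 with the compared groups alone and 12 without both libraries that stood apart. Leaving out 1 library gave 1 to 6. Over all genes no filter gave 1608 higher and 1433 lower of 19883, and quality weights 3020 and 2458 of 11357. The compared groups alone gave 1507 genes higher and 984 lower, and the fit without both libraries 2056 and 1945. Between resting KO and WT, DESeq2 called 6 and the compared groups alone 0, and leaving out 1 library gave 0 to 4. Over all genes DESeq2 called 823 higher and 659 lower of 11346, and the compared groups alone 120 and 260 of 11357. Between KO and WT with LPS, DESeq2 called 2, quality weights 7, the compared groups alone 8 and the fit with the replicate block 1. Of all genes DESeq2 called 8.66%, quality weights 15.6% and the compared groups alone 9.16%. The block fit called 223 genes higher and 356 lower of 11357. Between resting KO and 3′F, quality weights called 10, the compared groups alone 0 and the fit without both libraries 0. Leaving out 1 library gave 2 to 7. Over all 11357 genes quality weights called 1467 higher and 1449 lower. The compared groups alone called 6 genes higher and 4 lower, and the fit without both libraries 456 and 289. Between KO and 3′F with LPS, DESeq2 called 1, quality weights 4 and the compared groups alone 4. Of all genes DESeq2 called 7.06% and quality weights 16.2%, and the compared groups alone called 835 higher and 830 lower of 11357. Enzymes below 0 between resting 3′F and WT were 8 with no filter, 3 with quality weights and 8 without both libraries, with a range of 2 to 10 when 1 library was left out. With the replicate block the members called were 6 in WT, 9 in KO and 2 in 3′F for LPS. They were 4 for resting KO against WT and 5 for resting KO against 3′F. Over all 11357 genes the block gave 1676 higher and 1364 lower in WT, 1670 and 1349 in KO, and 1864 and 1459 in 3′F. It gave 504 and 459 for resting KO against WT, and 677 and 602 for resting KO against 3′F. The block ended the calls of Msmo1 in 3′F, Npc2 in WT, and Nsdhl and Soat1 in KO, and ended no other. Across genotypes numbers name different mice, so the block there carries no pairing. The causes were not tested. Depth limits Ch25h, with 0 to 3 counts in resting WT and 3′F libraries.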
